A study of Mus musculus with 6 samples.

Results

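Elastin and 9 genes of the elastic fibre were examined in embryonic fibroblasts (MEFs) of wild-type mice, which are primary cells cultured from embryos. The genes were Eln, Fbn1, Fbn2, Fbln1, Fbln2, Fbln5, Efemp2, Emilin1, Mfap4 and Mfap5. They were chosen by name as the core protein of elastic fibres and the microfibril and linker proteins around it. They are 10 genes of the 55487 in the deposited tables. These genes, and the lists and markers below, were chosen with earlier results of these data known. Their counts set beside the shares of all genes are therefore descriptive. All 10 were among the 16962 genes with enough reads to be tested. Poly(A) RNA had been sequenced from cells labelled non-senescent at passage 1 (P1) and cells labelled senescent at passage 6 (P6). Each passage had 3 libraries of cells treated for 3 days, 1 with vehicle, 1 with α-amyrin at 20 µM and 1 with β-amyrin at the same dose. The amyrins are isomeric plant triterpenoids that differ in the place of a methyl group on the last ring. The labels name no strain, embryo or isolate, and do not say whether the P1 and P6 cells came from the same isolate or whether the libraries came from separate cultures. Differences between P6 and P1 and differences between isolates therefore cannot be told apart, and every p-value measures only the spread among these 6 libraries.

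Elastic fibres give skin, lung and artery their recoil. Tropoelastin, the soluble product of Eln, is laid onto a scaffold of fibrillin microfibrils and is crosslinked there by lysyl oxidases. Fibulins, the fibulin-4 protein made by Efemp2, EMILIN-1 and the microfibril-associated proteins help tropoelastin to reach that scaffold or bind at its surface. Fibroblasts and smooth muscle cells are main sources of these proteins, and elastin is made mostly before and soon after birth.

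The longest Eln reading frame of the GENCODE annotation on mm10 (GRCm38) had 860 codons. Of these 36.28% were GGN, the glycine codons, rank 15 from the highest of 21136 genes with at least 100 codons, against a median gene's 6.034%. TGC and TGT, the cysteine codons, were 0.2326% of the Eln codons. Fibrillins and fibulins are instead built from cysteine-rich repeats of the EGF type. TGC and TGT made up 12.57% of the codons of Fbn1, 12.49% of Fbn2, 10.21% of Fbln1, 9.091% of Efemp2, 8.894% of Fbln5 and 8.763% of Fbln2, against a median of 2.12%. Emilin1 had 2.262%, Mfap4 2.847% and Mfap5 4.878%, with GGN shares of 13.67%, 11.03% and 4.268%. Emilin1 and Mfap4 ranked 305 and 826 from the highest of 21136 genes for GGN, and Mfap5 ranked 1584 for the cysteine codons. None of these 3 reached the GGN share of Eln or the cysteine codon shares of the fibrillins and fibulins. Codons 130 to 169 of Eln are shown, with each in-frame GGNGTN pair (glycine then valine) in capitals. They were picked because no stretch of 120 bases in this reading frame holds more such pairs. Other genes were not searched for the pair. The stretch holds 12 of the 57 such pairs in the reading frame.
Eln: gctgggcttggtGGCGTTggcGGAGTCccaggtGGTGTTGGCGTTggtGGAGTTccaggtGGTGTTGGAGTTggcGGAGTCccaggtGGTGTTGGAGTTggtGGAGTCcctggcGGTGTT

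Start-site sequences from RefSeq on GRCm38.p6, 250 bases before to 50 after the annotated start, were at hand for 6 of the 10 genes, and lacked Eln, Fbn2, Mfap4 and Mfap5. Windows of Efemp2 and Emilin1, which rose at P6, and of Fbn1 and Fbln1, which fell, are shown so that both directions can be compared. Capitals mark matches on either strand to GGGCGG (the GC box), TATAAA (the TATA box), CAGACA (an element bound by SMAD proteins) or TGANTCA (the AP-1 site). The Fbn1 window is chr2:125506389-125506688 on the minus strand, and its start lies 1555 bases inside the 5′ end of the gene model in the deposited tables. The Fbln1 window is chr15:85205699-85205998 on the plus strand. The Efemp2 window is chr19:5473696-5473995 on the plus strand. The Emilin1 window is chr5:30913536-30913835 on the plus strand, with its start 384 bases inside the 5′ end of that gene model.
Fbn1: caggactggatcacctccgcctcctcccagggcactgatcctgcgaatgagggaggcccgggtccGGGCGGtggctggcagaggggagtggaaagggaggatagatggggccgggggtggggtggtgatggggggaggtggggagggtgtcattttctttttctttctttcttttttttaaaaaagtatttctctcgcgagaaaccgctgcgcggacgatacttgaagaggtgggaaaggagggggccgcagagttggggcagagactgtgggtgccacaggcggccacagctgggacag
Fbln1: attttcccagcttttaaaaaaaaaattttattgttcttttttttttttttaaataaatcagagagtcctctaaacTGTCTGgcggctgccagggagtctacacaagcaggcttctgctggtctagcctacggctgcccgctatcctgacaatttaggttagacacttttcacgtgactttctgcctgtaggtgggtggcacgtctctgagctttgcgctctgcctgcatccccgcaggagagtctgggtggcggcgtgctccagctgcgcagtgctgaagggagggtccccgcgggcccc
Efemp2: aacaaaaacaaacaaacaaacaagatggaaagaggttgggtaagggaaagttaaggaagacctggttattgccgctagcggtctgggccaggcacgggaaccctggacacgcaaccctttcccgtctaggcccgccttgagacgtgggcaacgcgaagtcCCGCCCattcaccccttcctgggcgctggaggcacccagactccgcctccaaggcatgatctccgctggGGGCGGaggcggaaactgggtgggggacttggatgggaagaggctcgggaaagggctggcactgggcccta
Emilin1: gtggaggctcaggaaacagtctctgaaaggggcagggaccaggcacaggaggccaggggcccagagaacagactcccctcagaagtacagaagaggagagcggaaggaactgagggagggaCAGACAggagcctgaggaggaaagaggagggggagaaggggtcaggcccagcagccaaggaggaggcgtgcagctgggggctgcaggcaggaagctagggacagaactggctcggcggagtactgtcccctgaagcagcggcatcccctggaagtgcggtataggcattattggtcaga
Fbn1 held 1 GC box and Efemp2 held 2, as did Fbln2 and Fbln5, whose windows are not printed. Over all 32851 windows of the same length 35.7% held a GC box. Fbln1 and Emilin1 each held 1 CAGACA match, present in 21% of all windows. None of the 6 windows held TATAAA (13.6% of all windows) or TGANTCA (7.81%). G and C made up 51.7% of the Fbln1 window and 60.3% to 65.7% of the other 5, against a median of 52.7%. Among these 6 windows, the GC box occurred in genes that fell and in genes that rose at P6, and so did CAGACA. Eln, Mfap4 and Fbn2, the members with the largest passage changes, had no window. The part of these motifs in the passage changes was not tested.

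Total counts ran from 18798418 to 28752332 per library. The 10 genes took 0.920%, 0.816% and 0.824% of all counts at P1 with vehicle, α-amyrin and β-amyrin. At P6 the shares were 0.691%, 0.633% and 0.675% in that order. Fibroblast markers (Pdgfra, Pdgfrb, Col1a1, Col1a2, Thy1, Lum) were abundant in all 6 libraries, with a summed level, mostly Col1a1 and Col1a2, of 19337 to 23820 CPM at P1 and 16763 to 21224 CPM at P6. Yet 5 of these 6 markers fell at P6 and none rose, with a median log2 change of -0.55. By the same edgeR rule, given below, 29.1% of all tested genes fell and 30% rose. Those shares also stand beside the counts of the other markers. Pdgfra fell by 2.46, standing at 121 to 189 CPM in P1 libraries and 24.2 to 28.9 CPM in P6 libraries, and Col1a2 did not pass the test. CPM are counts scaled to a common library size after TMM scaling. Markers of other cell types moved with passage too, and the part of all these markers in the results below was not tested. All 10 of 10 macrophage markers rose. Their sum was 39.6 to 310.2 CPM at P1 and 3429 to 4826 CPM at P6, and none was at 0. Lyz2 alone stood at 17.6 to 136 CPM at P1 and 2159 to 2704 CPM at P6. The 6 smooth muscle and myofibroblast markers, of cells that make elastin, had 4 that fell and 1 that rose, and summed to 4521 to 5620 CPM at P1 and 3048 to 3820 CPM at P6. All 5 mesothelial markers fell (146 to 181 CPM at P1, 9.01 to 10.5 CPM at P6). Of the cartilage markers, 3 of the 4 tested fell and 1 rose (441 to 492 CPM at P1, 113 to 178 CPM at P6), with Matn1 below 1 CPM throughout. All 3 skeletal muscle markers tested fell (62.2 to 72.9 CPM at P1, 2.35 to 2.65 CPM at P6), with Myod1 and Myog below 1 CPM throughout. Both endothelial markers tested fell (22.4 to 26.2 CPM at P1, 5.42 to 7.80 CPM at P6), with Pecam1, Cdh5 and Tie1 below 1 CPM throughout. In bulk RNA, fewer cells of a type and less RNA per cell cannot be told apart.

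The first comparison asked how the elastic fibre genes differed between senescent and non-senescent MEFs. Elastin, the microfibril-associated Mfap4 and fibrillin-2 were several-fold lower at P6, fibulin-1 was 2.21-fold lower, and fibrillin-1 and fibulin-5 were lower by less. Efemp2 and Emilin1 were higher at P6, and Mfap5 did not pass the test. Fbln2 was called higher with a log2 change of only 0.13, and lost that call when any 1 library was left out. The Fbln5 call was lost without some of the libraries. By the quasi-likelihood test of edgeR with Benjamini-Hochberg adjustment over all 16962 genes, at an adjusted p below 0.05 and with treatment as an additive term, 6 of the 10 genes fell and 3 rose. Of all tested genes 29.1% fell and 30% rose by the same rule, so the 9 calls of 10 stand against 59.2% called in either direction. The median log2 change of the 10 genes was -0.35, and that of all tested genes was 0.00. Libraries of the 2 passages did not overlap in CPM for 8 of the 10 genes. In 6 of them P6 was lower (32.2% of all genes) and in 2, Efemp2 and Emilin1, it was higher (32.5% of all genes).

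**Figure D1:**
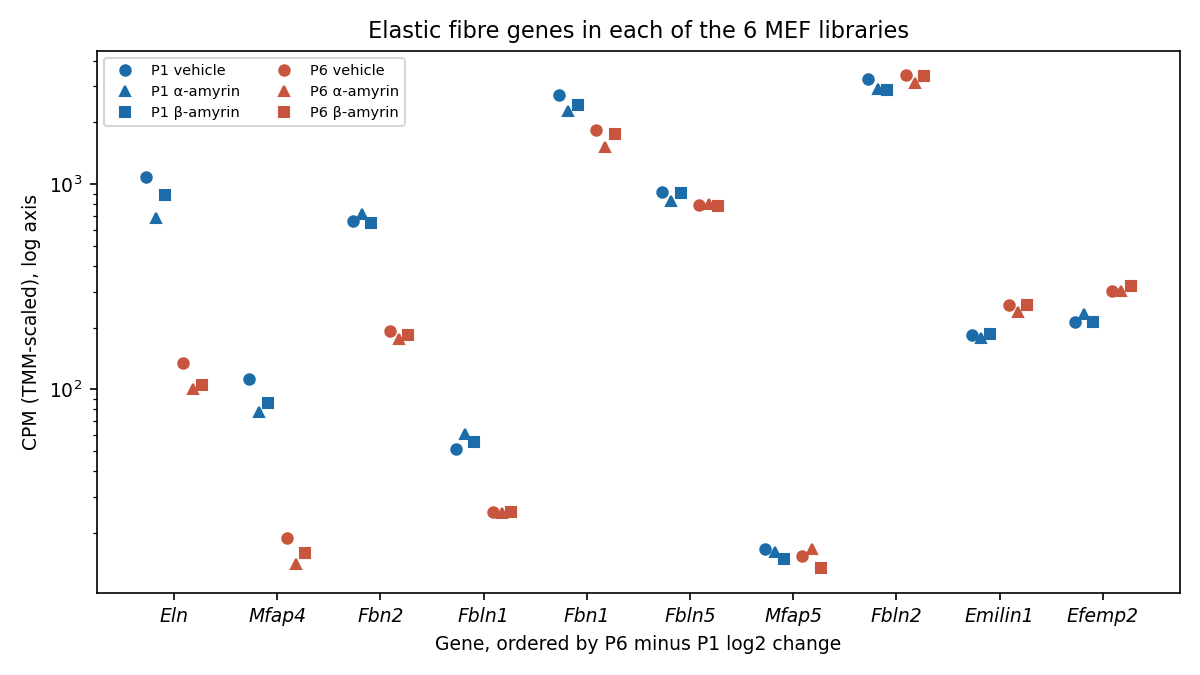
Level of each gene in each library, in TMM-scaled CPM on a log axis, with P1 in blue and P6 in red and 1 symbol per treatment. Eln lies at 686 to 1089 CPM in the P1 libraries and at 101 to 135 CPM in the P6 libraries, while Fbln2 and Mfap5 libraries of the 2 passages overlap.

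Eln (ENSMUSG00000029675; mm10 chromosome 5, 134702593 to 134747323, minus strand) encodes tropoelastin. It stood at 1089 CPM in P1 vehicle, 686 CPM in P1 α-amyrin and 884 CPM in P1 β-amyrin. At P6 it stood at 135 CPM in vehicle, 101 CPM with α-amyrin and 105 CPM with β-amyrin. Every P6 library was below every P1 library, and vehicle was the highest of the 3 treatments at both passages. Eln fell by 2.96 ± 0.07 (SE) on the log2 scale at P6 (95% interval -3.12 to -2.79, edgeR with Benjamini-Hochberg adjusted p = 1.06e-06), or 7.76-fold lower. The log2 ratio was -3.01 between the vehicle libraries, -2.77 between the α-amyrin libraries and -3.08 between the β-amyrin libraries. Counting from the largest fall, it was rank 123 of 16962 genes. A gene annotated as antisense, Gm30003, runs the other way across the Eln start and shares 267 exonic bases with it. Those are 3.3% of the exonic bases of Eln, and the use of strand in counting was not given in the sources used here, so reads in them cannot be assigned to one gene.

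Fbn1 (chromosome 2, 125300594 to 125507993, minus strand) encodes fibrillin-1, the main protein of microfibrils. Its level was 2719, 2274 and 2438 CPM at P1 in vehicle, α-amyrin and β-amyrin, and 1835, 1518 and 1762 CPM at P6. The passages did not overlap, and vehicle was the highest library of each. Fbn1 was 1.45-fold lower at P6 (log2 change -0.54 ± 0.04, adjusted p = 7.15e-05 by edgeR with Benjamini-Hochberg adjustment), with -0.57, -0.58 and -0.47 in vehicle, α-amyrin and β-amyrin. The opposite-strand gene Gm9913 shares 2442 bases, 20.1% of the exonic length of Fbn1, and stood at 71.6 to 120.3 CPM, so the origin of reads in those bases is uncertain.

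Fbn2 (chromosome 18, 58008623 to 58210487, minus strand) encodes fibrillin-2, best known from embryonic microfibrils. It measured 665, 714 and 648 CPM at P1 in the same treatment order and 193, 175 and 184 CPM at P6. The 3 libraries of a passage lay close together and far from those of the other. The log2 change was -1.88 ± 0.06, 3.67-fold lower (adjusted p = 2.81e-06 by edgeR with Benjamini-Hochberg adjustment), with pairs of -1.79, -2.03 and -1.82. The intervals of the log2 changes of the fibrillins, -2.02 to -1.74 for Fbn2 and -0.64 to -0.44 for Fbn1, were apart, although the difference between the genes was not itself tested. The opposite-strand gene Gm26507 shares 129 bases, 0.976% of the exonic length of Fbn2.

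**Figure D2:**
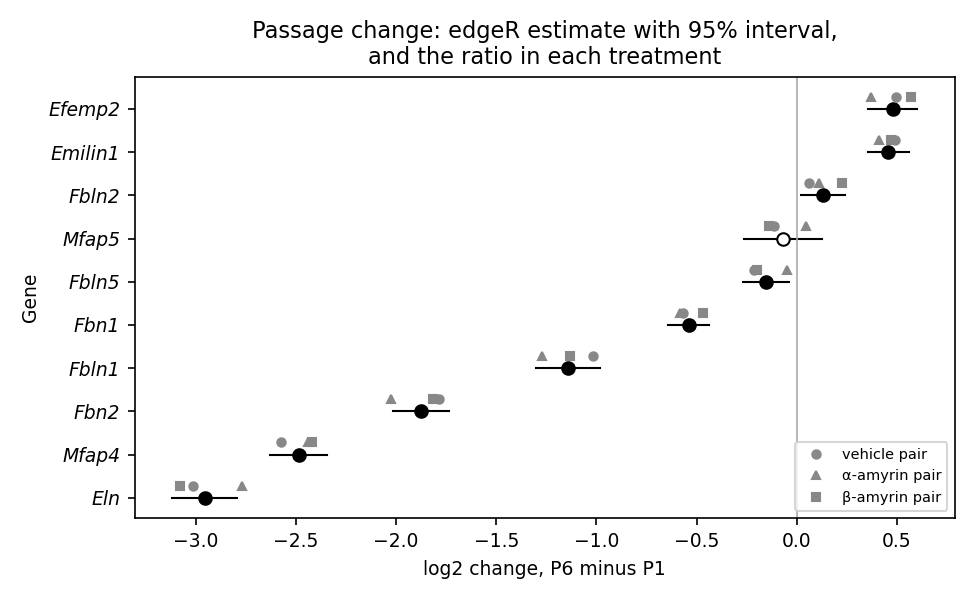
Log2 change from P1 to P6 for each gene, with the edgeR estimate and its 95% interval in black (open circle where not called) and the ratio within each treatment in grey. Eln, Mfap4 and Fbn2 lie between -2.96 and -1.88, Efemp2 and Emilin1 lie near 0.5, and for each called gene the 3 treatments have the same sign.

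Among the fibulins the directions differed. Fbln1 (chromosome 15, 85205949 to 85286535, plus strand), a binding partner of elastin and fibronectin, stood at 51.4, 60.7 and 55.4 CPM at P1 and 25.4, 25.1 and 25.2 CPM at P6. The P6 values were nearly alike and all were below P1. It fell by 1.14 ± 0.07 on the log2 scale, 2.21-fold lower (adjusted p = 2.26e-05, edgeR with Benjamini-Hochberg adjustment). Fbln5 (chromosome 12, 101746565 to 101819055, minus strand), which guides tropoelastin to microfibrils, was at 921, 828 and 904 CPM at P1 and 793, 799 and 787 CPM at P6. Its groups did not overlap, but the α-amyrin library at P1 lay close to the P6 libraries. The change was -0.16 ± 0.05 (adjusted p = 0.0281, edgeR with Benjamini-Hochberg adjustment), and the call was lost without P1 vehicle (adjusted p = 0.107), without P1 β-amyrin (0.0539) and without P6 vehicle (0.122), and with limma on the FPKM values (0.0516 to 0.0757).

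Fbln2 (chromosome 6, 91212455 to 91272540, plus strand), a fibulin of basement membranes and elastic fibres, was the most abundant of the 10. Its level was 3252, 2903 and 2882 CPM at P1 and 3391, 3130.2 and 3366 CPM at P6. The groups overlapped, since P1 vehicle lay above P6 α-amyrin. The change of 0.13 ± 0.05 passed the test narrowly (adjusted p = 0.0469, edgeR with Benjamini-Hochberg adjustment). Leaving out any 1 of the 6 libraries ended that call, with adjusted p from 0.0740 without P1 α-amyrin to 0.271 without P6 β-amyrin. It was also lost under RLE factors (0.0503), under library totals (0.0699), with passage alone in the fit (0.148) and with limma on the FPKM values (0.162 to 0.203). Without P1 vehicle it was 0.0830, without P6 α-amyrin 0.0880, without P6 vehicle 0.0997 and without P1 β-amyrin 0.246. Efemp2 (chromosome 19, 5473954 to 5482517, plus strand), whose product fibulin-4 brings lysyl oxidase to tropoelastin, stood at 213, 233 and 214 CPM at P1 and 301, 301 and 318 CPM at P6. It rose by 0.48 ± 0.05 on the log2 scale, 1.39-fold higher (adjusted p = 0.000252, edgeR with Benjamini-Hochberg adjustment). The opposite-strand gene Mus81, at 14.5 to 19.3 CPM, shares 173 bases, 4.57% of the exonic length of Efemp2. Reads in those bases are of uncertain origin.

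Emilin1 (chromosome 5, 30913402 to 30921277, plus strand) encodes a glycoprotein at the interface of elastin and microfibrils. It was at 183, 179 and 186 CPM at P1 and at 257, 237 and 258 CPM at P6. The groups did not overlap, and P6 α-amyrin was the lowest of its passage. The rise was 0.46 ± 0.04 on the log2 scale, 1.37-fold higher (adjusted p = 0.000139, edgeR with Benjamini-Hochberg adjustment). Mfap4 (chromosome 11, 61485431 to 61488900, plus strand) encodes a protein that binds both tropoelastin and fibrillin. It read 113, 77.4 and 85.4 CPM at P1 and 18.9, 14.2 and 15.9 CPM at P6. As for Eln, vehicle was the highest library at both passages. Mfap4 fell by 2.49 ± 0.06 on the log2 scale, 5.60-fold lower, with -2.57, -2.44 and -2.42 in the 3 treatments (adjusted p = 1.22e-06, edgeR with Benjamini-Hochberg adjustment). The opposite-strand gene Mapk7, at 28.8 to 39.3 CPM, shares 89 bases, 4.63% of the exonic length of Mfap4. The origin of reads in those bases is uncertain. Mfap5 (chromosome 6, 122505845 to 122529290, plus strand), the microfibril-associated glycoprotein MAGP-2, stood at 16.8, 16.1 and 14.8 CPM at P1 and 15.5, 16.7 and 13.4 CPM at P6. The groups overlapped and the change was -0.07 ± 0.08 (95% interval -0.26 to 0.12, edgeR with Benjamini-Hochberg adjusted p = 0.490).

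The levels per length, taken from the deposited FPKM values, had a nearly fixed order at the ends and a changed middle. Fbln2 was first and Fbn1 second in every library, and Mfap5 was last, just after Fbln1. Fbln2 stood at 523, 480.5 and 458 FPKM at P1 and 541, 506 and 532 FPKM at P6. Fbn1 was next at 225, 193 and 200.2 FPKM and then 152, 126 and 144 FPKM. Eln stood at 140.2, 89.4 and 112 FPKM at P1 and 16.9, 12.8 and 13.0 FPKM at P6. It was number 3 or 4 in the order at P1 and number 6 or 7 at P6. Fbln5, at 138, 127 and 135 FPKM, overlapped with Eln at P1, and at P6 it stood at 118, 119 and 116 FPKM, above all but Fbln2 and Fbn1. Fbn2, at 51.2, 56.1 and 49.6 FPKM at P1 and 14.8, 13.4 and 14.1 FPKM at P6, overlapped with Eln at P6. Mfap4, at 62.4, 43.4 and 46.0 FPKM at P1, overlapped there with Fbn2 and with Efemp2 (57.4, 64.3 and 56.9 FPKM), and was at 10.1, 8.05 and 8.46 FPKM at P6. Efemp2 (80.2, 81.4 and 83.7 FPKM) and Emilin1 (52.3, 49.2 and 52.2 FPKM) stood above Eln and Fbn2 at P6, whereas at P1 Emilin1 (38.0, 37.6 and 37.7 FPKM) was below both. The low pair did not overlap at either passage, with Fbln1 at 12.0, 14.6 and 12.9 FPKM and then 5.95, 6.02 and 5.61 FPKM, and Mfap5 at 4.82, 4.65 and 4.28 FPKM and then 4.40, 4.89 and 3.77 FPKM. Eln was 11.2%, 8.05% and 10.0% of the summed FPKM of the 10 genes at P1 and 1.70%, 1.39% and 1.34% at P6. Fbln2 went from 41.8%, 43.3% and 41.2% of that sum to 54.4%, 54.6% and 54.7%. The ratio of Fbn1 to Fbn2 FPKM was 4.40, 3.45 and 4.04 at P1 and 10.2, 9.42 and 10.2 at P6. These ratios compare single libraries and carry no test.

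**Figure D3:**
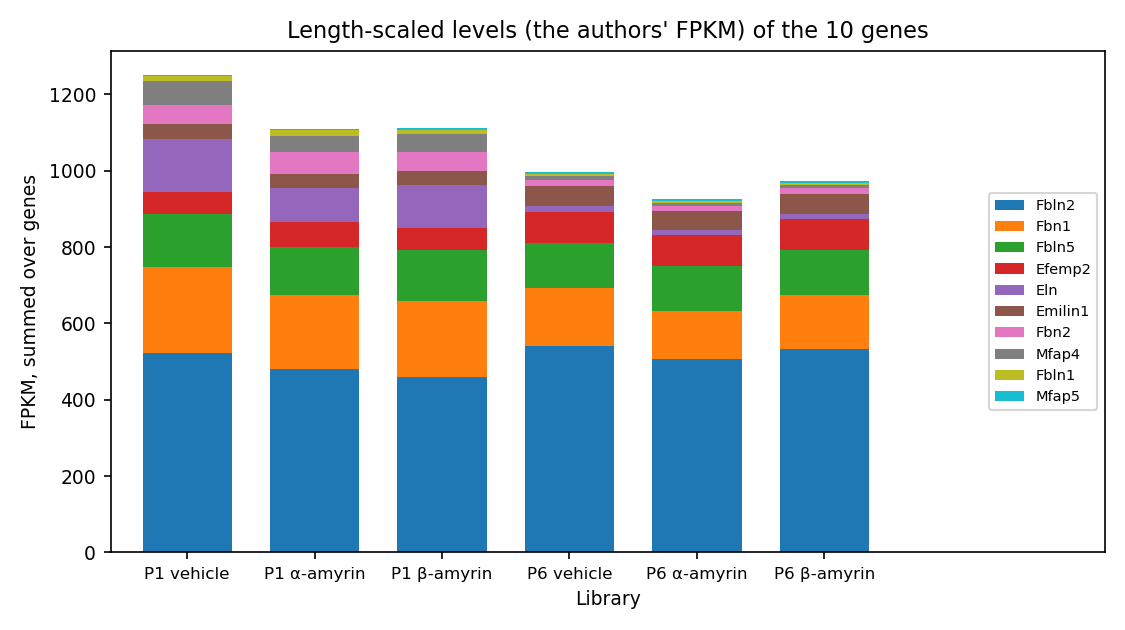
Summed FPKM of the 10 genes in each library, stacked by gene, on a linear axis starting at 0. The total goes from 1111 to 1252 FPKM at P1 to 927 to 996 FPKM at P6, and the Eln segment goes from 89.4 to 140.2 FPKM to 12.8 to 16.9 FPKM.

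The second comparison asked how each amyrin changed these genes. Eln and Mfap4, and less so Fbn1, had lower values with α-amyrin at both passages. No member passed edgeR with Benjamini-Hochberg adjustment (0.0295% of all tested genes did), 4 of the 10 had an unadjusted p below 0.05 (11.8% of all genes), and DESeq2 called 3, Eln, Fbn1 and Mfap4 (1.07% of all genes). The 4 with the low unadjusted p were those 3 and Fbln2. Eln differed by -0.55 ± 0.08 (95% interval -0.74 to -0.36, edgeR with Benjamini-Hochberg adjusted p = 0.0872), with -0.67 at P1 and -0.42 at P6. Mfap4 differed by -0.49 ± 0.07 (95% interval -0.66 to -0.32, edgeR adjusted p = 0.0872), with -0.54 and -0.41. Fbn1 differed by -0.27 ± 0.05 (edgeR adjusted p = 0.173), with -0.26 and -0.27. The remaining 7 genes lay between -0.14 (Fbln2) and 0.12 (Fbln1). The median over the 10 genes was -0.07, against 0.01 over all tested genes. The ratio to vehicle was below 0 at both passages for 5 of the 10 (28% of all genes) and above 0 at both for 1, Efemp2 (30.7% of all genes). Leaving out P1 β-amyrin gave called falls for Eln (adjusted p = 0.000818), Mfap4 (0.00516) and Fbn1 (0.0202) by edgeR, in a fit that called 1.91% of all genes. Leaving out P6 β-amyrin did so too (0.000412, 0.00309 and 0.0138), and called 2.12% of all genes. With no filter on low counts edgeR called the same 3 genes, and 1.55% of all. The fits without a library have 1 residual degree of freedom, and the other 4 leave-one-out fits called none.

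With β-amyrin no member passed edgeR with Benjamini-Hochberg adjustment either (0.0059% of all tested genes did). Eln and Mfap4 were the 2 with an unadjusted p below 0.05, a share not far from the 10.3% of all genes, and DESeq2 called Eln alone (0.643% of all genes). Eln differed by -0.33 ± 0.08 (95% interval -0.52 to -0.15, edgeR adjusted p = 0.310), with -0.30 at P1 and -0.37 at P6. Mfap4 differed by -0.34 ± 0.07 (edgeR adjusted p = 0.247), with -0.40 and -0.25. Without P1 β-amyrin edgeR called Eln (adjusted p = 0.0285) and 1.34% of all genes, and without P6 β-amyrin it called Mfap4 (adjusted p = 0.0495) and 1.83% of all genes. With no filter on low counts it called both, and 1.35% of all genes. The other 8 genes lay between -0.19 (Mfap5) and 0.05 (Fbln1). The ratio to vehicle was below 0 at both passages for 7 of the 10 (28.4% of all genes) and above 0 at both for 2, Efemp2 and Emilin1 (30.4% of all genes). Both amyrins were compared with the same vehicle libraries, so their lower values are not independent of each other. Vehicle was the highest library at both passages for 4 of the 10 genes, Eln, Fbn1, Fbln2 and Mfap4, against 14.4% of all genes, and the lowest for Efemp2, against 16.6%. No cell type marker was called with either amyrin. With α-amyrin the median change was -0.33 for smooth muscle and myofibroblast markers and -0.38 for the 2 endothelial markers tested. It was -0.21 for cartilage, -0.12 for skeletal muscle, -0.04 for fibroblast, 0.09 for macrophage and 0.36 for mesothelial markers. With β-amyrin the macrophage markers had a median change of -1.39. The other lists ran from -0.26 (skeletal muscle) to 0.34 (endothelial). The macrophage marker sum was 310.2, 257 and 39.6 CPM at P1 in vehicle, α-amyrin and β-amyrin, and 4775, 4826 and 3429 CPM at P6. The part of these marker lists in the values of the elastic fibre genes was not tested.

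**Figure D4:**
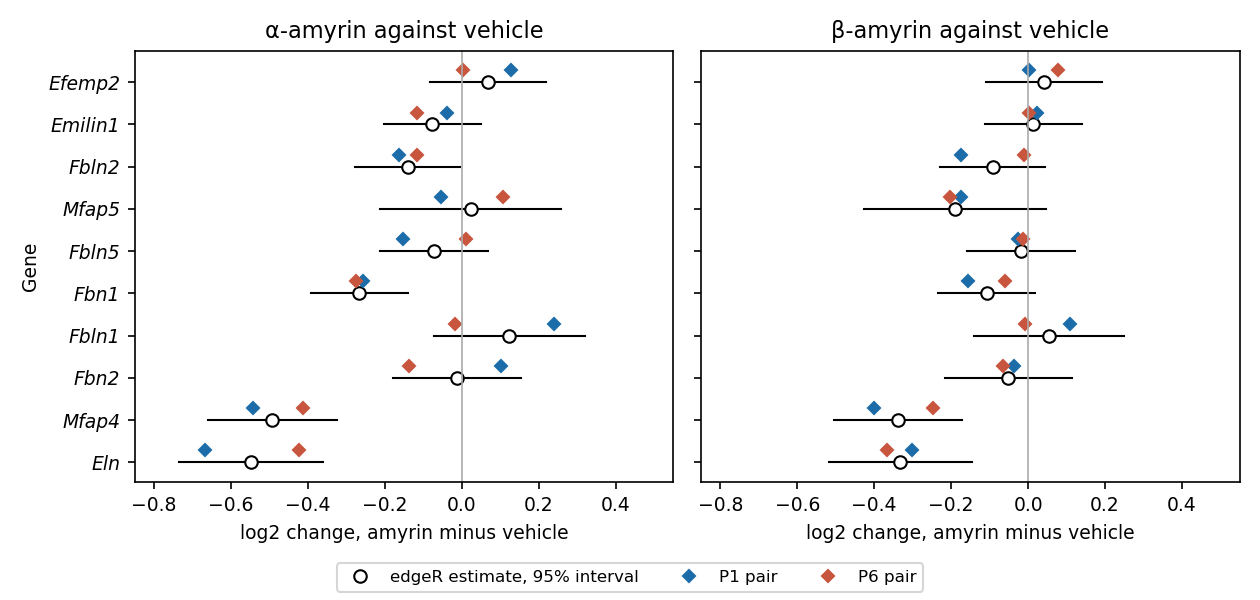
Log2 difference from vehicle for α-amyrin (left) and β-amyrin (right), with the edgeR estimate and 95% interval in black and the difference at each passage as a diamond. Eln and Mfap4 lie below 0 for both compounds at both passages, and no gene passed the adjusted test.

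The isomers were compared with each other at the same dose and time in all 10 genes, 1 contrast with p-values adjusted over all tested genes. No member passed edgeR with Benjamini-Hochberg adjustment (0.059% of all tested genes did), 2 had an unadjusted p below 0.05 (9.21% of all genes did, a share not far from 2 of 10), and DESeq2 called none (0.643% of all genes). Those 2 were Eln and Fbn1. Eln differed by -0.22 ± 0.08 (95% interval -0.40 to -0.03, edgeR adjusted p = 0.491) and Fbn1 by -0.16 ± 0.05 (95% interval -0.28 to -0.03, edgeR adjusted p = 0.463). The Eln value was -0.08 without P1 α-amyrin, -0.12 without P1 β-amyrin and -0.33 without P6 α-amyrin, and the Fbn1 value was -0.10 without P6 β-amyrin. Mfap4 differed by -0.15 (95% interval -0.32 to 0.02), Mfap5 by 0.21 (95% interval -0.02 to 0.45) and the other 6 genes by -0.09 to 0.07. A passage-by-amyrin term, with the isomers of a passage taken as 2 samples of 1 group, called no member by edgeR (0% of all tested genes). None of the 10 had an unadjusted p below 0.05 there (2.66% of all genes did), and DESeq2 called none of the 10 (0.124% of all genes). For Eln that term was 0.08 (95% interval -0.44 to 0.60), an interval too wide to show that the response was alike at both passages.

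The genes whose levels over the 6 libraries were most like that of Eln were found among 11714 genes with a mean of at least 5 CPM, by the root mean square difference of log2 CPM centred on each gene's mean. Gm30003, the antisense gene at the Eln start (chromosome 5, 134747042 to 134822967, plus strand), was nearest at 0.0798 over 6 libraries. It stood at 39.8, 21.6 and 29.5 CPM at P1 and 4.19, 3.08 and 3.22 CPM at P6. The bases shared with Eln are 18.6% of the exonic length of Gm30003, and reads in them cannot be assigned to one gene. The part of such reads in the likeness was not tested. Megf10, which encodes a receptor for engulfing dead cells, came next at 0.163, with 56.1, 30.0 and 41.3 CPM at P1 and 7.70, 5.31 and 6.29 CPM at P6. Hunk, a protein kinase, was next again at 0.234. Hunk shared the passage change and had log2 differences of -0.04 with α-amyrin and -0.07 with β-amyrin. For Mfap5, the gene with the smallest passage change, the nearest were Sepsecs (0.0278), Slc37a4 (0.0402) and Gm5884 (0.0449). These genes were picked for their likeness, so the values describe them and carry no test.

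Beyond the 10 genes, the partners of elastic fibre assembly moved in both directions at P6, as did all tested genes. Of 28 partners tested of 31 listed, 10 rose and 11 fell, against 30% and 29.1% of all tested genes. The median log2 change of the partners was 0.01, and that of all tested genes was 0.00. Lox, the lysyl oxidase that crosslinks tropoelastin, stood at 4730, 4501 and 5044 CPM at P1 and 4603, 4034 and 4523 CPM at P6. Its change of -0.12 ± 0.04 did not pass the test (edgeR with Benjamini-Hochberg adjusted p = 0.0554). Loxl1, its paralogue, fell by 0.15 ± 0.05 (adjusted p = 0.0393, edgeR). Ltbp4, which binds fibulins and latent TGF-β, fell by 0.91 ± 0.06, and Mfap2, the other MAGP, fell by 0.76 ± 0.06. The 3 with the largest called change at a mean of at least 5 CPM were Dcn at -1.88 ± 0.10, Adamtsl4 at 1.63 ± 0.15 and Vcan at -1.57 ± 0.04. Decorin and versican are proteoglycans of the matrix, and Adamtsl4 encodes a fibrillin-binding protein.

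**Figure D5:**
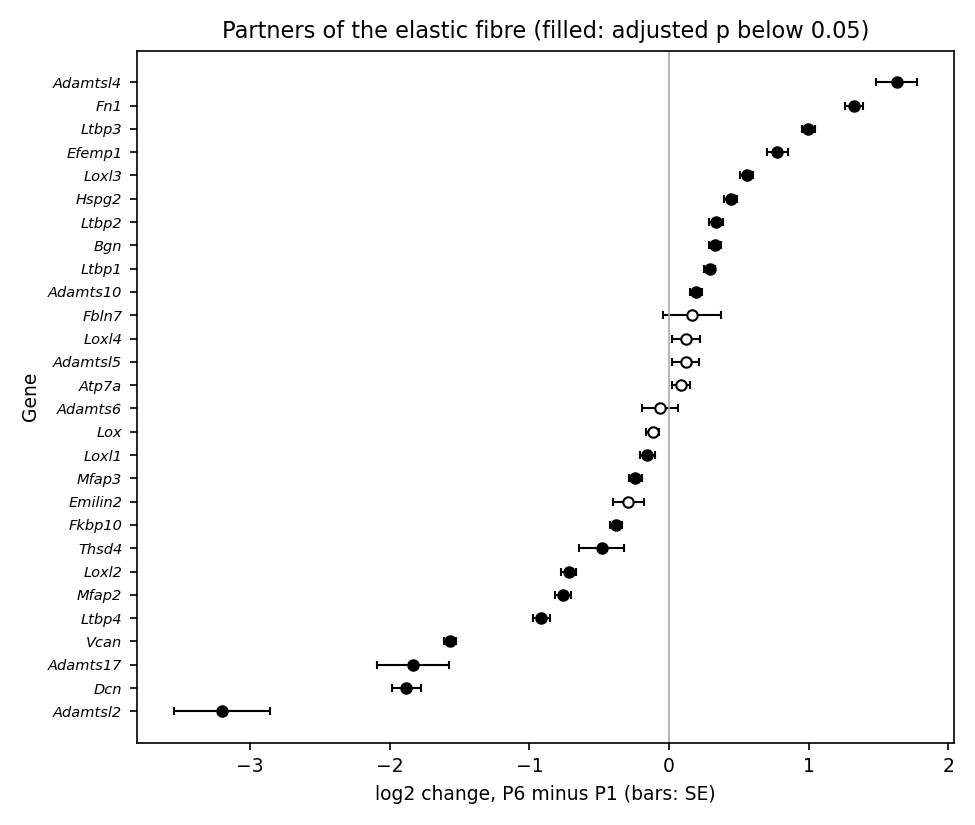
Log2 change from P1 to P6 of the 28 tested partner genes, with bars for the standard error and filled points for an adjusted p below 0.05. The points spread over both sides of 0, with 10 called higher and 11 called lower, against 30% and 29.1% of all tested genes.

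Elastases and their inhibitors had 8 that rose and 3 that fell at P6 among 13 tested of 17 listed, with a median log2 change of 1.30. These counts and the median pool proteases with inhibitors, and both kinds had genes that rose and genes that fell. They give no net direction of elastase activity, which was not measured. Of all tested genes 30% rose and 29.1% fell. Ctss, the elastin-cleaving cathepsin S, rose by 3.84 ± 0.49 (adjusted p = 0.000543, edgeR with Benjamini-Hochberg adjustment) and Cst3, its inhibitor cystatin C, by 1.41 ± 0.06 (adjusted p = 6.40e-06). Mmp12, macrophage elastase, stood at 2.57, 2.72 and 1.01 CPM at P1 and 9.86, 16.3 and 77.3 CPM at P6, a rise of 3.55 ± 0.67 (adjusted p = 0.00348, edgeR). Both Ctss and Mmp12 are known from macrophages, and the rise of the macrophage markers is given above. Ctss stood at 20.3, 18.9 and 3.14 CPM at P1 in vehicle, α-amyrin and β-amyrin, and 170, 177 and 218 CPM at P6. At P6 both genes were highest with β-amyrin. The macrophage marker sum there was 3429 CPM, against 4775 with vehicle and 4826 with α-amyrin, and more of it was Lyz2 than all other markers together. Cd68 stood at 115, 137 and 155 CPM at P6 in that treatment order, while every other macrophage marker was lowest with β-amyrin. The part of macrophages in the rises of Ctss and Mmp12 was not tested. Among elastin receptors 7 of 11 rose and 1 fell, against 30% and 29.1% of all tested genes, with a median of 0.67 for the receptors. Lgals3 rose by 1.89 ± 0.32, Ctsa, of the elastin receptor complex, rose by 1.06 ± 0.08, and the integrin subunit Itgb8 fell by 1.08 ± 0.11. With either amyrin, edgeR called no gene of the partner, elastase or receptor lists. Of all tested genes it called 0.0295% with α-amyrin and 0.0059% with β-amyrin.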

How the data were processed

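Poly(A) RNA of 6 libraries was measured, 1 per condition, made with a directional kit per the labels' protocols. Reads were handled with featureCounts 1.6.3, SAMtools 1.9, HISAT2 2.1.0, Trimmomatic 0.38 and FastQC 0.11.7 on build mm10, per the submitters' processing notes, with settings, strand included, not given in the sources used here. A whole-number count per gene and library, not normalized, was deposited by the authors. The authors deposited an FPKM value for the same genes, by a tool not named in those sources.

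Counts were tested with edgeR 4.0.16 in R 4.3.3: TMM, filterByExpr (minimum count 10, passage as group), additive passage and treatment terms, quasi-likelihood test, Benjamini-Hochberg adjustment over 16962 genes and a threshold of 0.05. No condition has a second library here, so the 2 residual degrees of freedom come from departures from additivity, with 4.83 prior degrees of freedom and a common biological coefficient of variation of 7.72%. The quasi-likelihood test gives no standard error. The SE printed with edgeR values is the absolute log2 change divided by the square root of the F statistic. The 95% intervals were built from that SE and the t distribution with the total degrees of freedom. Pairs of libraries were compared by log2 CPM ratio with a prior count of 2. The script was tested on simulated data. Alternatives were RLE factors, library totals, no filter, DESeq2 1.42.0, limma 3.58.1 on log2(FPKM + 1) or log2(FPKM + 0.1), passage alone, both amyrins as 1 group, and leaving out each library. Depth ran from 18798418 to 28752332 counts per library.

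The members, the partner, elastase, receptor and regulator lists and the markers were chosen with earlier results of these data known. Named beyond the 10 genes are, per list, the 3 called genes with the largest absolute P6 against P1 change and a mean of at least 5 CPM, with Lox, Loxl1, Ltbp4 and Mfap2, and the 3 genes nearest to Eln and to Mfap5.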

Additional observations from a re-analysis of the deposited data

Results flagged for a closer look

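For 5 pairs of gene and compound, the log2 CPM ratio to vehicle had opposite signs at P1 and P6, in single libraries. With α-amyrin, Fbn2 was at 0.10 at P1 and -0.14 at P6, Fbln1 at 0.24 and -0.019, Fbln5 at -0.15 and 0.011, and Mfap5 at -0.054 and 0.11. With β-amyrin, Fbln1 was at 0.11 at P1 and -0.0089 at P6. The difference between the passages was not tested for single compounds.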

How the results depend on the processing

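The 9 calls at P6 became 7 to 9 under the alternatives, and 7 to 8 when 1 library was left out. Fbln2 and Fbln5 were the only members to lose the call. For α-amyrin the count of 0 became 3 with no filter and 3 with DESeq2, and ranged from 0 to 3 when 1 library was left out. For β-amyrin the count of 0 became 2 with no filter and 1 with DESeq2, and ranged from 0 to 1 when 1 library was left out; the cause was not tested. Over all genes, α-amyrin calls went from 5 to 464 with no filter and 182 with DESeq2, and β-amyrin calls from 1 to 404 and 109. Calls for α-amyrin minus β-amyrin went from 10 to 484 and 109, with no member called. The passage-by-amyrin calls went from 0 to 159 and 21, with no member called.

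Small uncalled log2 values changed sign. With α-amyrin, Fbn2 was 0.013 under library totals and Mfap5 -0.080 with both amyrins as 1 group. With β-amyrin, Emilin1 was -0.0060 under limma with a pseudocount of 1, with or without the filter, -0.0062 with a pseudocount of 0.1, and -0.031 with both amyrins as 1 group. When 1 library was left out, α-amyrin values ran from -0.14 to 0.11 for Fbn2, -0.025 to 0.16 for Efemp2 and -0.050 to 0.10 for Mfap5. The β-amyrin values ran from -0.13 to 0.019 for Fbn2, -0.057 to 0.14 for Fbln1, -0.061 to 0.014 for Fbln5, -0.038 to 0.11 for Efemp2 and -0.023 to 0.041 for Emilin1. Differences between the isomers ran from -0.085 to 0.16 for Fbn2, -0.046 to 0.17 for Fbln1, -0.11 to 0.026 for Fbln2, -0.12 to 0.021 for Fbln5 and -0.061 to 0.12 for Efemp2. The passage-by-amyrin term ran from -0.10 to 0.25 for Eln, -0.089 to 0.13 for Fbn1, -0.11 to 0.031 for Efemp2 and -0.10 to 0.20 for Mfap5. That term could not be fitted without a vehicle library.

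No paired analysis was possible because the labels give no replicate numbers and each condition has 1 library. With 1 library per condition, a compound response that differs between passages enters the error. Mfap5, at 13.4 to 16.8 CPM, and Mfap4 at P6, at 14.2 to 18.9 CPM, had the fewest counts.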

Other observations

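Genes known to regulate elastin expression moved in both directions at P6. Of 20 tested, 6 rose and 9 fell, against 30% and 29.1% of all tested genes, with a median log2 change of -0.15 for the 20. With either amyrin, edgeR with Benjamini-Hochberg adjustment called none of them. Of all tested genes it called 0.0295% with α-amyrin and 0.0059% with β-amyrin. Igf1, a growth factor that raises elastin synthesis in smooth muscle cells, rose by 1.94 ± 0.05 (adjusted p = 1.71e-06, edgeR) and stood at 51.7 to 64.2 CPM in P1 libraries and 189 to 244 CPM in P6 libraries. Fosl1, which encodes the AP-1 subunit Fra-1, fell by 0.66 ± 0.08 (adjusted p = 0.000484, edgeR). Tgfbr1, the type I receptor of TGF-β, rose by 0.55 ± 0.08 (adjusted p = 0.00128, edgeR).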
